A study of Homo sapiens with 4 samples.

Results

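The unfolded protein response and the protein folding machinery of the endoplasmic reticulum (ER) were followed in A549 cells, an established human lung adenocarcinoma line, through a list of 32 genes. The list was drawn up by gene symbol, and each of the 32 symbols was found once among the 57905 genes of the count table. All 32 passed the expression filter, a mean of at least 1 CPM (counts relative to the scaled size of the library) over the 4 libraries, as did 13966 genes in all. DERL3 passed only through its level in 1 library.

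Proteins that are secreted or placed in membranes fold in the ER lumen with the help of chaperones, disulfide isomerases and lectins, and misfolded chains are returned to the cytosol for degradation. When folding lags, the sensors IRE1 (encoded by ERN1), PERK (EIF2AK3) and ATF6 signal to the nucleus, and the response raises chaperone and degradation genes. IRE1 acts by splicing the XBP1 transcript, a step that counts per gene cannot show.

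Each of 4 conditions gave 1 library: an empty lentiviral vector, a vector meant for DCBLD2 overexpression (titled OE), a scramble control hairpin, and a hairpin that targets DCBLD2 (shDCBLD2). The overexpression construct and its empty vector carried the EF1 promoter and blasticidin selection. Hairpins were expressed from the H1 promoter under puromycin selection, so the control lines differ in vector and drug. All were stable lines made by lentiviral infection and drug selection, the labels name no drug treatment of these libraries, and the shDCBLD2 library is titled shD5, 1 of several hairpins the study made, whose sequence is not used here. Since no condition was repeated, differences could not be set against a spread between replicates, no p-value is given, and each comparison is one of libraries, not of conditions. The 95% intervals (exact Clopper-Pearson) cover counting error only.

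Counts on genes came to between 16601633 and 21537283 per library. The targeted gene DCBLD2 stood at 504 CPM in the scramble control, 197 CPM in shDCBLD2, 434 CPM for the empty vector but 242 CPM in the library labelled OE. The transcript was thus lower than its control in both manipulated libraries, which goes against the label of the overexpression library, so it is called by its title here. All 6 epithelial markers (such as KRT8, KRT18 and EPCAM) were above 3 counts in every library, with a summed level of 12573 to 19220.2 CPM. Keratins held most of these counts. CDH1 had 220 counts in shDCBLD2 and at least 832 elsewhere, and EPCAM 26 and at least 42, while KRT7 was highest there (106520). The 10 genes abundant in A549 summed to 12408 CPM in shDCBLD2 and 16429 to 20114 CPM elsewhere. Among them FGB had 791 counts in the library labelled OE and at most 252 elsewhere, and GCLM 612 and at least 1660. Among 8 alveolar type II markers SFTPA1 had no count in any library, and the list summed to between 84.9 and 154 CPM. ABCA3 held most of these counts, with 1926, 1797, 1851 and 2495 in the scramble control, shDCBLD2, the empty vector and the library labelled OE. In the last, NKX2-1 had 7 counts (0 elsewhere), LAMP3 7 (at most 3) and SFTPD 8 (3 in each other). SFTPC went the other way, with 2 counts there and at least 3 elsewhere. In that library 6 of the 8 were above 3 counts, against 3 in each other library. The 10 HEK293-like markers summed to 243 CPM in the library labelled OE and to between 93.5 and 122 CPM in the others. PCSK1N (1874 counts) and HOXB9 (1286) held most of these counts in that library and had at most 1072 and 542 elsewhere. NEFM had 221 counts there and at most 4 elsewhere, HOXA9 59 and at most 5, LIN28B 78 and at most 27, and ZNF711 70 and at most 23. MEIS2 and TSPYL5 went the other way, with 102 and 318 counts there and at least 154 and 414 elsewhere. SYT4 and STMN2 were at 0 in all. The 8 fibroblast-like markers summed to 74.7 CPM in the library labelled OE and to between 34.7 and 55.1 CPM elsewhere, with POSTN at 42 counts and at 0 elsewhere, COL3A1 at 68 and at most 18, COL1A2 at 67 and at most 17, and FAP at 0 in all. COL1A1 held most of these counts, with 639, 1165, 652 and 1041 in the scramble control, shDCBLD2, the empty vector and the library labelled OE. PDGFRB had 10 counts in the last and at most 13 elsewhere. Of 6 blood-like markers, summing to between 3.94 and 20.7 CPM, CD14 held most counts and PTPRC was at 0 in every library. The 5 markers of plasma cell-like cells, which are rich in folding genes, summed to between 394 and 518 CPM, nearly all from SDC1, which epithelial cells also express. Among them MZB1 had 17, 3, 11 and 39 counts in the scramble control, shDCBLD2, the empty vector and the library labelled OE, with JCHAIN and IGKC at 0 in all. The part of such transcripts in the results below was not tested.

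The levels of the 32 genes per transcript length were compared first. On the deposited FPKM scale, which corrects for library size and exonic length, CALR, a calcium-binding lectin chaperone, was highest in every library, at 267, 275 and 268 FPKM in the scramble control, shDCBLD2 and the empty vector and 310 FPKM in the library labelled OE. HSPA5 (BiP), the major Hsp70 chaperone of the ER, followed with a mean of 134 FPKM, and PDIA4, a disulfide isomerase, with 120 FPKM. HSP90B1, SDF2L1, CANX and PDIA6 had means of 70.4 to 75.6 FPKM, and their order changed from library to library. The sensors were far lower, with means of 4.06 FPKM for ATF6, 1.81 FPKM for EIF2AK3 and 1.49 FPKM for ERN1. DERL3, a derlin of the degradation channel that is typical of secretory cells, was lowest, at 0.1, 0.06, 0.2 and 0.84 FPKM in the same library order.

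**Figure D1:**
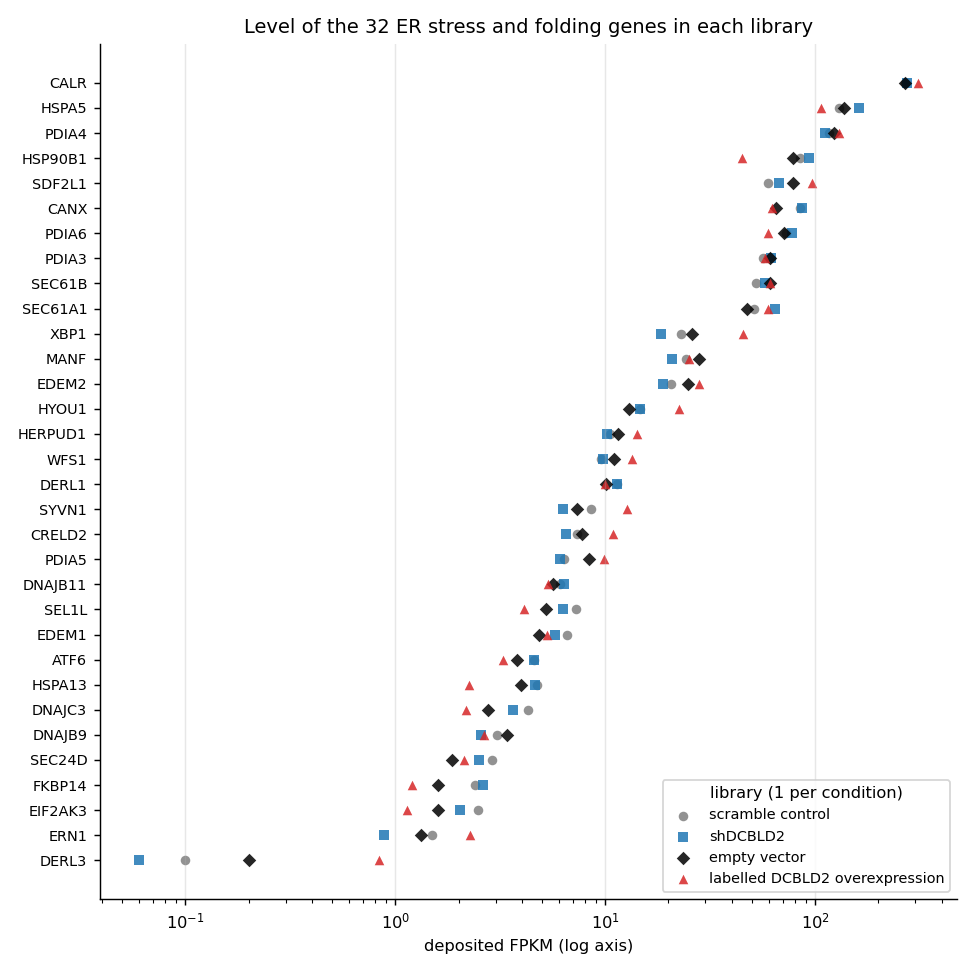
Deposited FPKM (log axis) of each of the 32 genes, ordered by mean, with 1 symbol per library. The libraries lie close together for most genes; the ratio of the highest to the lowest library was 1.09 for PDIA3 and 14.0 for DERL3.

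Together the 32 genes held 0.434% of counts in the scramble control, 0.456% in shDCBLD2, 0.422% for the empty vector and finally 0.427% for the library labelled OE. The summed level thus moved little between libraries, while single genes moved in both directions. The 3 members of highest mean CPM (CALR, HSPA5 and CANX) held 38.5% to 42.0% of the summed counts, so the sum speaks little for the scarcer members.

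The library labelled OE was compared with the empty vector to ask which of these genes differ in the cells meant to overexpress DCBLD2. DERL3 was the 1 member called higher by at least 2-fold, where 6.42% of all genes past the filter were called higher, and 0 of 32 members were called lower against 5.35% of all genes. DERL3 passed the filter only through its level in the library labelled OE. A gene was called when its ratio reached 2-fold and its counting interval excluded no change. The median log2 ratio of the 32 genes was 0.02, beside -0.04 over all genes, with 16 members above and 16 below 0. The intervals of 14 members lay above 0 and those of 13 below it, against 31.9% and 36.0% of all genes. None of the 32 members changed sign with other library scalings (library totals, DESeq2 size factors), but 15 did once ratios were centred on genes of similar GC content, as given with the base composition below. These were DNAJB9, DNAJB11, DNAJC3, PDIA3, FKBP14, CANX, SEL1L, DERL1, ATF6 and SEC61B, from below to above 0, and SDF2L1, PDIA4, CALR, EDEM2 and WFS1, from above to below 0. In bulk RNA, fewer cells of a kind and less RNA per cell cannot be told apart.

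**Figure D2:**
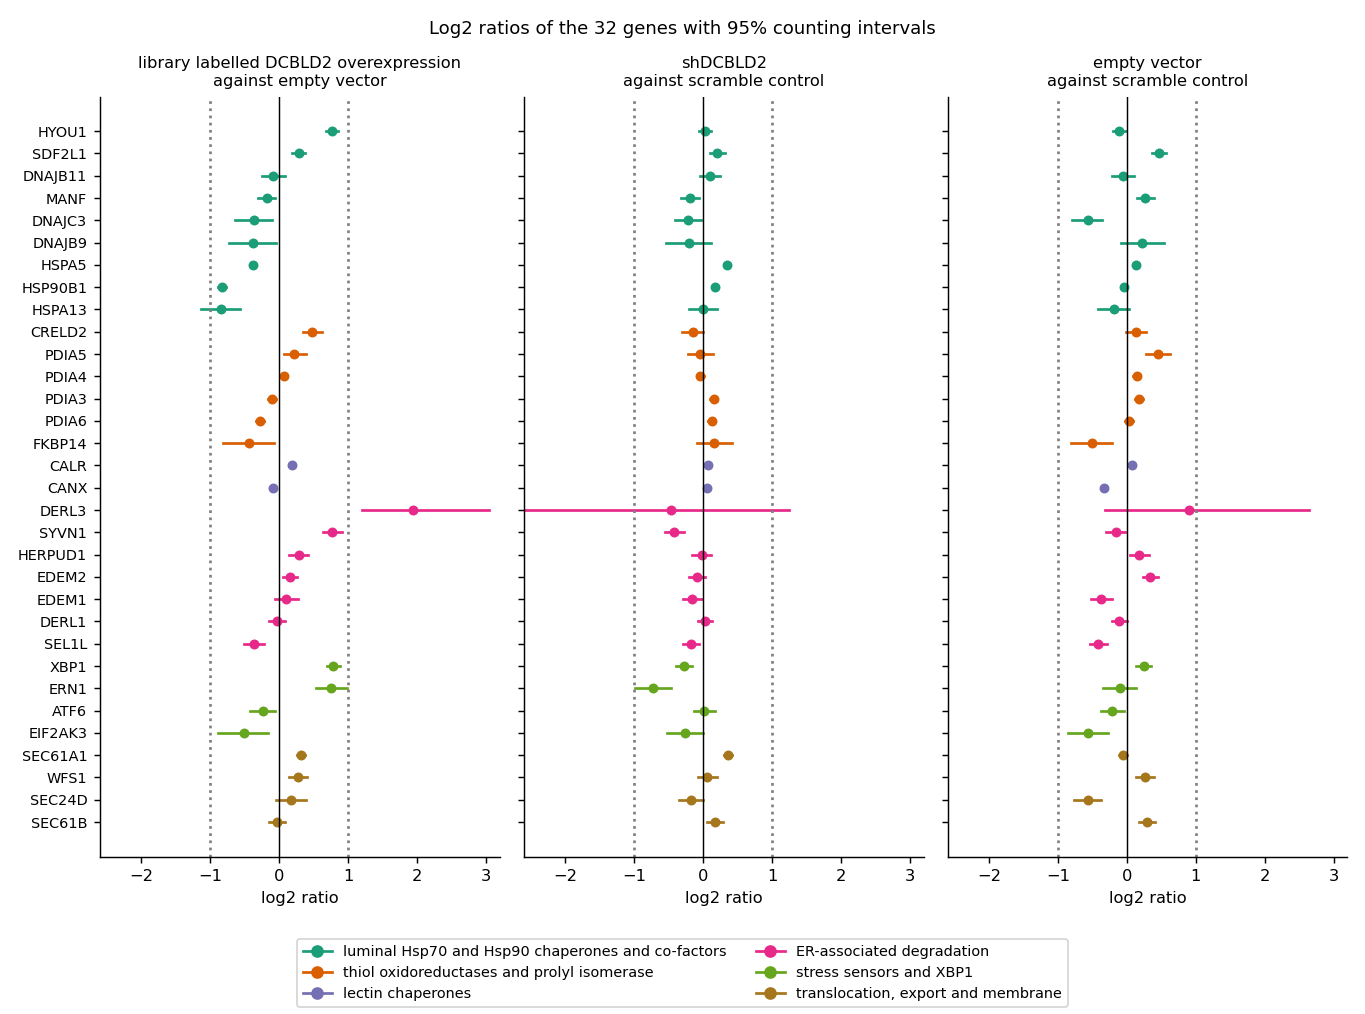
Log2 ratio of each gene in the 3 comparisons, grouped by role, with bars for 95% counting intervals and dotted lines at 2-fold. DERL3 lies at 1.93 in the left panel with an interval wholly beyond the line at 1, and every other gene lies between -0.84 and 0.78 there.

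Among the luminal chaperones HSP90B1, HSPA13 and HSPA5 stood lower. HSP90B1 (GRP94), the Hsp90 of the ER, stood at 388 CPM in the scramble control, 439 CPM in shDCBLD2, 377 CPM for the empty vector but 212 CPM in the library labelled OE. The first 3 libraries were close together and the last was far below them, with a log2 ratio to the empty vector of -0.83 (-0.89 to -0.77). Its deposited position is chromosome 12, 104323885 to 104347423, on a build that is not named in the file. HSPA13, a microsomal Hsp70 relative, showed the same order at a lower level, with 19.4, 19.5, 17.0 and 9.45 CPM and a log2 ratio of -0.84 (-1.13 to -0.56). HSPA5 was at 496, 629, 546 and 419 CPM in the same order, lowest in the library labelled OE, with a log2 ratio of -0.38 (-0.43 to -0.34).

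HYOU1 (GRP170), a large Hsp70 relative that acts as nucleotide exchange factor for BiP, stood on the other side. It was at 110, 112 and 102 CPM in the scramble control, shDCBLD2 and the empty vector and at 173 CPM in the library labelled OE, a log2 ratio of 0.76 (0.68 to 0.85). SDF2L1, a BiP cofactor, was also highest there, at 107 CPM against 88.1 CPM with the empty vector (log2 ratio 0.28, 0.18 to 0.38), but the control lines themselves differed more, by 0.47 (0.36 to 0.57). The BiP cochaperones DNAJB9, DNAJB11 and DNAJC3 had log2 ratios of -0.38, -0.09 and -0.37, and MANF, a BiP-binding secreted factor, one of -0.18. The interval of DNAJB11 included no change. Over the 9 luminal chaperones and cofactors the median log2 ratio was -0.37, with 2 above and 7 below 0, where 47.1% of all genes were above 0. With GC centring the median was -0.0046, with 4 above and 5 below 0.

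Disulfide isomerases and their relatives differed less. PDIA4 was at 372, 363, 411 and 430 CPM and PDIA3, the partner of the lectin chaperones, at 234, 260, 264 and 245 CPM in the scramble control, shDCBLD2, the empty vector and the library labelled OE. Their log2 ratios to the empty vector were 0.07 (0.02 to 0.11) and -0.10 (-0.16 to -0.04). PDIA6 had a log2 ratio of -0.27, PDIA5 one of 0.22, the prolyl isomerase FKBP14 one of -0.43, and CRELD2, an ER stress gene with disulfide isomerase activity, one of 0.48 (0.34 to 0.62). Of the lectin chaperones, CALR had a log2 ratio of 0.19 (0.16 to 0.23) and the membrane-bound CANX one of -0.09 (-0.14 to -0.04).

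ER-associated degradation held the called member. DERL3 had 7 counts in the scramble control, 5 in shDCBLD2, 14 for the empty vector but 53 in the library labelled OE. It rose 3.82-fold against the empty vector, a log2 ratio of 1.93 (1.20 to 3.04), from a level under 1 CPM. Since DERL3 passed the expression filter only through the library labelled OE, its place among the tested genes and its call are not independent. SYVN1 (HRD1), the ubiquitin ligase of the degradation complex, stood at 46.1, 34.6, 41.2 and 70.4 CPM, highest in the same library, with a log2 ratio of 0.77 (0.64 to 0.91). SEL1L, the adaptor that SYVN1 works with, had a log2 ratio of -0.37 (-0.52 to -0.22), on the other side of 0 from SYVN1, but with GC centring SEL1L came to 0.16 and SYVN1 to 0.55, on the same side. HERPUD1, a stress-induced component of the same complex, had a log2 ratio of 0.28 and the mannosidase-like EDEM2 one of 0.15, while the intervals of EDEM1 (0.11) and DERL1 (-0.04) included no change.

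The sensors split as well. ERN1 was at 15.8 CPM in the scramble control, 9.55 CPM in shDCBLD2, 14.7 CPM for the empty vector but 24.8 CPM in the library labelled OE. Against the empty vector this gave a log2 ratio of 0.75 (0.53 to 0.98). XBP1, the transcription factor downstream of IRE1, was at 67.7, 56.0, 80.2 and 138 CPM in the same order, a log2 ratio of 0.78 (0.69 to 0.88). For both genes the library labelled OE was highest and shDCBLD2 lowest. The same held for PDIA4, PDIA5, CRELD2, SYVN1, HERPUD1, EDEM2 and DERL3, so it was not particular to ERN1 and XBP1. EIF2AK3 was at 13.1, 11.0, 8.88 and 6.18 CPM in the same order, with a log2 ratio of -0.52 (-0.89 to -0.16) to the empty vector, and ATF6 had one of -0.24 (-0.43 to -0.06). Of the remaining members, the translocon channel SEC61A1 had a log2 ratio of 0.32, the ER membrane protein WFS1 one of 0.27, the COPII coat subunit SEC24D one of 0.17 and the translocon subunit SEC61B one of -0.03, the latter pair with intervals that included no change.

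At a threshold of 1.5-fold, 5 members were called higher (DERL3, XBP1, SYVN1, HYOU1 and ERN1) where 12.8% of all genes were, and 2 were called lower (HSPA13 and HSP90B1) where 17.8% of all genes were. With the scramble control in place of the empty vector, XBP1 reached 2-fold as well, with a log2 ratio of 1.03 (0.93 to 1.13), and HSPA13 and EIF2AK3 were called lower with -1.03 and -1.08. In that comparison 8.08% of all genes were called higher and 8.98% lower. Across the 4 libraries, the one labelled OE was highest for 13 members and lowest for 12, while it was highest for 34.2% and lowest for 39.2% of all genes. The shDCBLD2 library was highest for 10 and lowest for 11 (33.1% and 30.5% of all genes), the scramble control for 5 and 5 (15.8% and 15.1%) and the empty vector for 4 and 4 (16.9% and 15.3%). DERL3, SYVN1, CRELD2, SEC61A1, EDEM2 and HSP90B1 are among 11 members that overlap another gene with at least 100 counts in the deposited coordinates. Over the 4 libraries the largest overlapping gene had 7123 counts for DERL3, 37873 for SYVN1, 13354 for EDEM2 and 12117 for SEC61A1. For CRELD2 and HSP90B1 it had 1546 and 868. The sources used here do not state whether counting used the strand, so reads of the overlap could belong to either gene.

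The transcripts differ in base composition, and this moved with the result. GC content was taken from the longest GENCODE 29 transcript of each gene. Across the 32 genes, Pearson's r between GC content and the log2 ratio to the empty vector was 0.67 (Spearman's rho 0.72), and across 13690 genes it was 0.39 (0.56). These are correlations across genes of the same pair of libraries, which are not independent replicates. With all genes split into 5 groups of like size by GC content, the median log2 ratio was -0.56 in the group of lowest GC content and 0.29 in that of the highest. HSPA13 (34.9% GC) and HSP90B1 (41.2%) lay low on this scale and SYVN1 (56.3%) and DERL3 (59.9%) high. XBP1, at 41.5% GC, did not follow it, since the GC group that holds it had a median of -0.34.

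After each log2 ratio was centred on genes of similar GC content, an alternative chosen after seeing the data, XBP1 had a value of 1.26, DERL3 1.64, ERN1 0.68, HYOU1 0.57 and SYVN1 0.55. HSP90B1 came to -0.35, HSPA13 to -0.21 and HSPA5 to -0.18, which left them below 0 and closer to it. The 10 members that crossed to above 0 came to between 0.044 (SEC61B) and 0.51 (DNAJB11), among them CANX (0.39) and ATF6 (0.24), and the 5 that crossed to below 0 to between -0.0046 (SDF2L1) and -0.087 (PDIA4). The members called 2-fold higher were then DERL3 and XBP1, and the median of the 32 genes was 0.15, with 21 above 0. Of all 13690 genes with a GC value, 6840 were then above 0, as the centring brings about. The share of all genes called after centring is not given here, so these calls have nothing to be set beside. The part of base composition in the differences was not tested beyond this centring.

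The shDCBLD2 library was compared with the scramble control to ask how the same genes stand where DCBLD2 was knocked down. No member was called at 2-fold in either direction, while 1.16% of all genes were called higher and 5.62% lower. The median log2 ratio of the 32 genes was -0.01, beside 0.01 over all genes. ERN1 was the member farthest from 0, at 9.55 CPM against 15.8 CPM, a log2 ratio of -0.72 (-0.99 to -0.47), and the only member called at 1.5-fold, where 4.93% of all genes were called higher and 11.6% lower. SYVN1 had a log2 ratio of -0.41 (-0.56 to -0.27), XBP1 one of -0.27 (-0.39 to -0.16) and SEL1L one of -0.17 (-0.28 to -0.06). DERL3, with 5 counts against 7, had an interval from -2.62 to 1.25 and showed no detectable difference at this depth.

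On the other side, SEC61A1 had a log2 ratio of 0.36 (0.31 to 0.42), HSPA5 one of 0.34 (0.30 to 0.38), SDF2L1 one of 0.21 (0.10 to 0.31) and HSP90B1 one of 0.18 (0.14 to 0.22). In all, 9 members had intervals above 0 and 8 below it, against 29.8% and 27.1% of all genes. Of the 7 degradation genes 6 had ratios below 0, and of the 9 luminal chaperones and cofactors 6 had ratios above 0 (7 of 7 below and 4 of 9 above with GC centring). Over all genes 50.9% had ratios above 0. Among the genes so counted, HERPUD1, EDEM2, DERL3, HYOU1, HSPA13 and DNAJB11 had intervals that included no change. HYOU1, HSPA13, HERPUD1, DERL1 and ATF6 changed sign under another scaling, each from a log2 ratio between -0.02 and 0.03. With the empty vector as control, DERL3 was called lower (log2 ratio -1.36, interval -3.55 to -0.16, 5 against 14 counts), where 8.01% of all genes were called lower and 2.23% higher.

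The 2 comparisons share no library, so their values were set side by side. Members with a ratio above 0 in the library labelled OE and below 0 in shDCBLD2 numbered 11, among them ERN1, XBP1 and 5 of the 7 degradation genes (SYVN1, HERPUD1, EDEM1, EDEM2 and DERL3). The reverse held for 11 members, among them HSPA5, HSP90B1, PDIA3, PDIA6, CANX and ATF6. Not all of these signs lay beyond counting error. Of the genes just named, HERPUD1, EDEM2, DERL3 and ATF6 had intervals in shDCBLD2 that included no change, and EDEM1 had one in the library labelled OE. Another 5 were above 0 in both and 5 below 0 in both. HERPUD1, DERL1, ATF6, HYOU1 and HSPA13 change place with the library scaling. With GC centring in both comparisons 16 members were above 0 in the library labelled OE and below 0 in shDCBLD2, 7 the reverse, 5 above 0 in both and 4 below 0 in both. HSPA5, HSP90B1 and PDIA6 then kept the place given above, while PDIA3, CANX, ATF6 and EDEM2 did not. Over all genes past the filter the shares were 28.1% and 32% with opposite signs, 18.9% above 0 in both and 20.9% below 0 in both. Pearson's r was -0.46 across the 32 genes and -0.32 across all genes, whereas Spearman's rho was -0.26 and -0.30, so which set had the stronger relation depends on the measure. Both are a description across genes that share these libraries. DCBLD2 itself was lower in both comparisons.

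**Figure D3:**
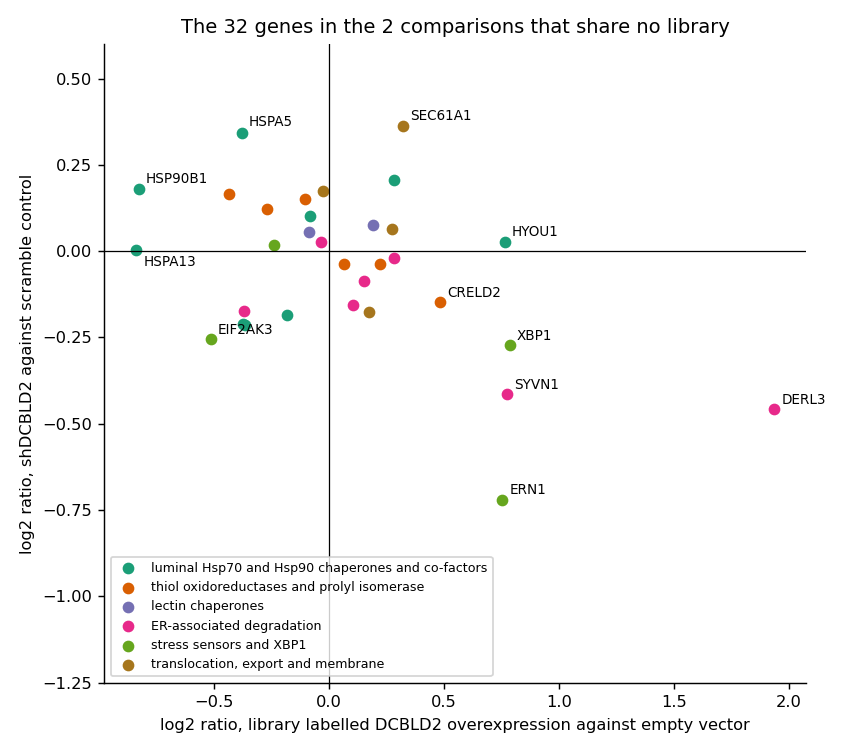
Log2 ratio of each of the 32 genes in the library labelled OE against the empty vector (x axis) and in shDCBLD2 against the scramble control (y axis), colored by role. ERN1 (0.75 and -0.72), SYVN1 (0.77 and -0.41) and XBP1 (0.78 and -0.27) lie at the lower right, and HSPA5 (-0.38 and 0.34) and HSP90B1 (-0.83 and 0.18) at the upper left.

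The empty vector was compared with the scramble control to show the spread between cells that carry different control vectors. No member was called at 2-fold, where 2.22% of all genes were called higher and 1.89% lower, and none at 1.5-fold, where 7.07% and 6.67% of all genes were. Intervals lay above 0 for 12 members and below it for 11, against 26.7% and 27.8% of all genes, and the median of the 32 genes was -0.01, as over all genes. DNAJC3 (log2 ratio -0.57, interval -0.79 to -0.36), EIF2AK3 (-0.56, -0.86 to -0.28), SEC24D (-0.56, -0.76 to -0.37) and FKBP14 (-0.51, -0.81 to -0.22) were lowest. SDF2L1 (0.47, 0.36 to 0.57) and PDIA5 (0.45, 0.28 to 0.62) stood highest after DERL3 (0.91), whose interval from -0.31 to 2.64 included no change. Differences of this size between the control lines were as large as those of most members in the comparisons above. ERN1 (-0.10), HYOU1 (-0.11), SYVN1 (-0.16) and HSP90B1 (-0.04) lay closer together in the control lines than in the library labelled OE against either. Across the 32 genes the log2 ratio between the control lines fell with log2 exonic size (Spearman's rho -0.80, Pearson's r -0.64). It rose with GC content (0.54 and 0.59). Across 13690 genes these values were -0.36 and -0.29 for size and 0.30 and 0.27 for GC content. The part of transcript size and base composition in these differences was not tested.

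The promoters of the members were searched for the sequence elements that ATF6 and XBP1 are known to bind. RefSeq promoter sequences (GRCh38.p14, 250 bases before to 50 after the start) were matched by symbol for 27 of the 32 genes. The ER stress response element (ERSE, CCAAT and CCACG with 9 bases between, either strand) occurred in 6 of the 27 promoters (CALR, CANX, CRELD2, HSP90B1, HSPA5 and XBP1) and in 22 of 27305 promoters in all (0.0806%). ERSE-II (ATTGG and CCACG with 1 base between) occurred in HERPUD1, HYOU1 and SDF2L1 and in 0.0549% of all promoters. The unfolded protein response element (UPRE, TGACGTGG) occurred in HYOU1 alone among members and in 0.795% of all, where it overlaps an ERSE-II, and the cyclic AMP response element (CRE, TGACGTCA) in 0 of the 27 and in 1.98% of all. The matches below are from 4 members with values far apart in the library labelled OE, with the element in capitals and 15 bases on each side, 5′ to 3′ on the strand of the gene.
HSPA5: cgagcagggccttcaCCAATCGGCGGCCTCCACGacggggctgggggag
HSP90B1: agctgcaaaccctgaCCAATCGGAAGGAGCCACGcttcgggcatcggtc
XBP1: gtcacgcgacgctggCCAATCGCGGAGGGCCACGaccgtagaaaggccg
HYOU1: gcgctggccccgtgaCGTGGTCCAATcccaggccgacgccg
These lie at chr9:125241376-125241424 (minus strand), chr12:103930201-103930249 (plus strand), chr22:28800588-28800636 (minus strand) and chr11:119057365-119057405 (minus strand) of GRCh38.p14. Relative to the start site the element spans -66 to -48 in HSPA5, -194 to -176 in HSP90B1, -52 to -34 in XBP1 and -185 to -175 in HYOU1, where the ERSE-II is read on the opposite strand. HSP90B1 and HYOU1 hold a further match nearer to the start.

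Members with either element stood on both sides of 0. In the library labelled OE the 9 genes ranged from -0.83 (HSP90B1) to 0.78 (XBP1) with a median log2 ratio of 0.28, and 6 of 9 were above 0. The 18 members whose promoter held neither ranged from -0.84 to 0.77 with a median of -0.06, and 8 of 18 were above 0. With GC centring the medians were 0.29 and 0.11, with 5 of 9 and 11 of 18 above 0. In shDCBLD2 against the scramble control the uncentred medians were 0.06 and -0.06. Between the control lines they were 0.13 and -0.05, with 6 of 9 and 8 of 18 above 0, so a split of the same direction was also present between the controls. A match is a description of these letters and not a binding site, and no match says only that the letters are not in this window.

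Other genes of ER function and protein folding were followed in 9 lists of 156 genes, of which 154 passed the filter. In the library labelled OE 4 were called higher and 3 lower against the empty vector, where 6.42% and 5.35% of all genes past the filter were. The median log2 ratio of the 154 genes was -0.11, beside -0.04 over all genes. All 7 called genes belong to the PERK-ATF4 and cytosolic heat shock lists. The PERK-ATF4 list had a median log2 ratio of -0.02, with 8 above and 8 below 0. With GC centring the median was -0.13, with 7 above and 9 below 0. At 1.5-fold 3 genes of this list were called higher and 4 lower, where 12.8% and 17.8% of all genes were. Of the 16 PERK-ATF4 genes, SESN2, a stress-induced sestrin, rose from 15.4 to 52.7 CPM (log2 ratio 1.77, 1.58 to 1.97), the transcription factor ATF3 from 3.32 to 9.75 CPM (1.52) and CHAC1, which degrades glutathione, from 10.1 to 20.5 CPM (1.02, 0.76 to 1.29). NUPR1, a stress-induced nuclear protein, fell from 11.2 to 5.27 CPM (-1.07, -1.46 to -0.71). CHAC1 was 4.29 CPM and NUPR1 3.94 CPM in the scramble control, and both were called higher between the control lines. DDIT3 (CHOP), the best known target of this branch, was at 4.55, 3.52, 6.43 and 6.18 CPM with a log2 ratio of -0.06 (-0.45 to 0.34), and overlaps a highly counted gene on the opposite strand, while ATF4 itself had one of 0.50 (0.45 to 0.55).

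Of the 15 cytosolic heat shock genes, HSP90AA1, the inducible cytosolic Hsp90, fell from 983 to 310 CPM in the library labelled OE (log2 ratio -1.67, -1.71 to -1.62), and HSPH1, an Hsp110, from 59.5 to 29.1 CPM (-1.03, -1.19 to -0.87). CRYAB, a small heat shock protein, rose from 13 to 86 counts (2.71, 2.03 to 3.85). The list had a median of -0.29, with 11 of 15 below 0 (-0.40 and 13 of 15 with GC centring), while 47.1% of all genes were above 0 before centring. In shDCBLD2 against the scramble control none of the 154 genes was called higher and 1, NUPR1, was called lower (log2 ratio -1.11, -1.76 to -0.58). Of all genes 1.16% were called higher and 5.62% lower there. The median of the 154 genes was 0.08, beside 0.01 over all genes. There the heat shock list had a median of 0.38, with 12 of 15 above 0 against 50.9% of all genes. HSP90AA1 was at 2093 against 1067 CPM (0.97, 0.95 to 1.00). HSP90AA1 thus stood on the same sides of 0 as HSP90B1 in the ER, with larger ratios. Both Hsp90 genes have related copies elsewhere in the genome. Whether reads of such copies entered their counts was not tested, so the counts are uncertain.

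In the other 7 lists no gene was called in either comparison. In the library labelled OE the translocon and signal peptidase list had a median of -0.26, from SEC62 (-0.90) to SSR4 (0.60), and the COPII and KDEL receptor list one of -0.22, from LMAN1 (-0.73), a cargo receptor, to SEC16A (0.34), which organizes exit sites. With GC centring these medians turned to 0.23 and 0.097. Medians of the oxidative folding, further degradation, N-glycosylation and further chaperone lists lay between -0.01 and 0.07, and that of the mitochondrial unfolded protein response list was 0.17, or -0.044 with GC centring. DNAJC10, an ER disulfide reductase, was lowest of the oxidative folding genes with -0.95 and P4HB, the archetypal disulfide isomerase, highest with 0.40. The degradation list ran from the lectin ERLEC1 (-0.65) to the ubiquitin ligase RNF5 (0.41) and the N-glycosylation list from GFPT1 (-0.51), of hexosamine synthesis, to PRKCSH (0.35), a glucosidase II subunit. Further chaperones and calcium proteins ran from CLGN (-0.84), a calnexin relative, to the apoptosis effector BAK1 (0.76), and the mitochondrial list from the protease YME1L1 (-0.84) to the protease CLPP (0.41).

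In shDCBLD2 against the scramble control the medians of these 7 lists lay between -0.01 and 0.16. STC2, a secreted glycoprotein and the highest PERK-ATF4 gene, had a log2 ratio of 0.97, and TIMM17A, of the mitochondrial import channel, one of 0.85, while LONP1 was the lowest mitochondrial gene with -0.01. The oxidative folding list ran from ERP29 (-0.59) to DNAJC10 (0.48), the degradation list from RNF5 (-0.45) to UBE2J2 (0.53) and the translocon list from SEC11C (-0.32) to SRPRB (0.37). PRKCSH (-0.37) and ALG2 (0.38) bounded the N-glycosylation list, SEC24C (-0.26) and SAR1A (0.31) the COPII list, and NUCB1 (-0.40) and BAK1 (0.40) the further chaperones. HSPA1B, with -0.39, was lowest of the heat shock genes. RNF5, PRKCSH and DNAJC10 thus stood on opposite sides of 0 in the libraries labelled OE and shDCBLD2.

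Between the control lines 2 of the 154 genes were called higher and 0 lower, where 2.22% and 1.89% of all genes were. The median of the 154 genes was 0.01, beside -0.01 over all genes. NUPR1, at 1.48, stood highest and ATF3 (-0.36) lowest of the PERK-ATF4 genes. Of these 16 genes 13 were above 0, against 49.2% of all genes, with a median of 0.29 (0.23 with GC centring). The heat shock list ran from HSPH1 (-0.45) to HSPB1 (0.58), the oxidative folding list from TMX3 (-0.39) to TXNDC12 (0.57), the degradation list from FAF2 (-0.52) to RNF5 (0.44) and the COPII list from MCFD2 (-0.59) to KDELR1 (0.35). SRPRA (-0.38) and SSR4 (0.37) bounded the translocon list, MAGT1 (-0.37) and TMEM258 (0.24) the N-glycosylation list, ATP2A2 (-0.39) and BAX (0.48) the further chaperones, and YME1L1 (-0.46) and HTRA2 (0.49) the mitochondrial list.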

How the data were processed

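RNA from 4 A549 cell libraries, 1 per condition, was sequenced after isolation of poly(A) mRNA, per the labels. The authors deposited raw read counts per gene and FPKM values. The FPKM values relate each count to the exonic size of its gene and to the counts on genes of that library. Aligner, counter and annotation are not given in the sources used here, and the labels list genome build mm9, a mouse build, beside human gene identifiers. Library totals of 16601633 to 21537283 counts limit the precision, and intervals cover counting error only, since reads are not independent molecules.

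Counts were scaled with TMM factors of edgeR 4.0.16 (R 4.3.3), and log2 ratios took a prior count of 2. Intervals and summaries were computed in Python 3.11.15 (scipy 1.17.1, numpy 2.4.6, pandas 2.3.3). Genes with a mean of at least 1 CPM entered the summaries. Calls needed a 2-fold ratio and an exact Clopper-Pearson 95% interval that excluded no change. The script was tested on simulated data. All 32 members are named, and of each other list the highest and lowest gene per comparison and those called in a comparison with a manipulated library. ATF4 and DDIT3 were added after their values were seen. Members and lists were chosen with earlier results of these data known. Of 241 list symbols, 6 were found under an older symbol. Alternatives were DESeq2 1.42.0 size factors, library totals, prior counts of 0.5 and 5, a 1.5-fold threshold, no filter or at least 5 CPM, counts drawn down to the smallest library, deposited FPKM, the other control library and, added later, centring on GC content in 20 bins. ER retention signals of the proteins were not analysed here.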

Additional observations from a re-analysis of the deposited data

How the results depend on the processing

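No paired analysis was possible because each condition has 1 library and the labels carry no replicate numbers. For the library labelled OE against the empty vector, the threshold of 1.5-fold gave 5 members higher and 2 lower (main 1 and 0) and 8 and 23 genes of the other lists (main 4 and 3). A mean of at least 5 CPM left 0 members called higher, since DERL3 did not pass. The scramble control as control gave 2 members higher, 2 lower, 9 genes of the other lists lower and a DCBLD2 log2 ratio of -1.06. Centring on GC content gave 2 members higher, a median of 0.15 for members and 0.043 for the other lists, and -0.36 for DCBLD2. For shDCBLD2 against the scramble control, 1.5-fold gave 1 member lower and 6 higher and 4 lower genes of the other lists (main 0 and 1). Drawing counts down gave 1 gene of the other lists called higher. With the empty vector as control there were 1 member lower and 2 higher and 4 lower genes of the other lists, and DCBLD2 was at -1.14, while GC centring gave -1.44. Between the control lines, 1.5-fold gave 4 genes of the other lists higher and 1 lower, and GC centring 1 higher. DCBLD2 was there at -0.28 with library totals and -0.080 with GC centring. Beyond what the construction of each alternative shows, the cause was not tested. Of 925 values of single members under 10 alternatives, 835 stayed within their counting interval and 90 moved beyond it, 37 of them of 96 with GC centring and 45 with the other control library. GC centring changed the sign of 15 of 32 members in the library labelled OE, 6 in shDCBLD2 and 2 between the control lines. DERL3 rests on 53 counts or fewer per library, which limits its precision.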
